A study of Mus musculus with 2 samples.

Results

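The H2 genes of mouse chromosome 17, which form the major histocompatibility complex (MHC), were placed against the chromatin loops and contact domains called in HPC5 cells. Members were the protein-coding genes of the RefSeq annotation whose symbols start with H2- and which lie on the assembled chromosome 17 of mm10 (GRCm38.p6). There were 35 of them of 21521 protein-coding genes on chromosomes other than Y. They ran from H2-K1 at 33996012 to H2-M2 at 37483554, a stretch of 3.49 Mb called here the H2 interval, which held 169 protein-coding genes in all. By symbol, 9 were class II genes, 2 were classical class I genes (H2-K1 and H2-D1) and 23 were non-classical class I genes (6 H2-Q, 5 H2-T and 12 H2-M). H2-Ke6, a hydroxysteroid dehydrogenase gene that only shares the symbol stem, was left unclassed. A further 3 protein-coding H2 genes (H2-Q8, H2-Q9 and H2-T18) are annotated on scaffolds outside the assembled chromosome and were not analysed here, and 11 H2 pseudogenes entered only an alternative count.

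MHC class I proteins pair with beta-2-microglobulin and show peptides made inside the cell to cytotoxic T cells and natural killer cells. Class II proteins are made of an alpha and a beta chain and show peptides of endocytosed proteins to helper T cells. Their genes are switched on through a promoter module of X and Y boxes, to which the RFX complex and NF-Y bind, and class II expression needs the coactivator CIITA. Non-classical class I genes encode relatives of the classical proteins, many of them with narrow expression or specialised ligands.

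The data were loop and domain lists from Hi-C, which counts ligations between DNA fragments that are close together in the nucleus, on 2 libraries of 1 group. Both came from HPC5, a bone-marrow-derived haematopoietic progenitor cell line, with the genotype Etv6+/+, and there was no mutant, treated or control sample. The labels do not say that the replicates were separate cultures, and the strain of the line is not given in the sources used here, although H2 haplotypes differ between mouse strains. Hi-C does not measure expression, so whether these genes were transcribed was not measured. A loop is listed as 2 anchors, which are bins 5, 10 or 25 kb wide, and carries a whole number named n whose meaning the files do not give. The authors deposited loops at 2 settings, named high and medium after the lists' own terms. The medium lists held 1276 loops in replicate 1 and 5729 in replicate 2, the high lists 202 and 3354, and the domain lists 3 and 339 domains. Of the medium loops, 1074 in replicate 1 and 2375 in replicate 2 were on 25 kb anchors. In number, the high lists equal the medium lists without these loops. The settings thus differ in anchor width, and whether the high setting is also stricter is not given. The lists give no read totals, so the depth is unknown, and the shorter replicate 1 lists bear on every comparison between replicates. Counts below use both medium lists together unless another list is named.

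H2 genes had ends in loop anchors in 3 of 35 cases (8.57%), all of them class II genes. These were H2-DMb1 and H2-Ob in replicate 2 and H2-Ab1 in replicate 1. Over all protein-coding genes the share was 22.5%, and over the other 134 protein-coding genes of the H2 interval it was 8.96% (12 genes). Neighbouring genes share anchors and are not independent, so no test was made between these shares. By replicate, 1 of 35 H2 genes was at an anchor in replicate 1, where the share of all genes was 6.67%, and 2 of 35 in replicate 2, where it was 19.8%. Under the high setting the count was 2 of 35, against 9.53% of all genes, and on loops found in both replicates it was 2 of 35 (H2-Ob and H2-Ab1), against 5.83%. These 2 lay in the left anchors of the same matched pair of loops, H2-Ob in replicate 2 alone and H2-Ab1 in replicate 1 alone. No H2 gene was at an anchor in both replicates.

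Among the classes, 3 of 9 class II genes (33.3%), 0 of 2 classical class I genes and 0 of 23 non-classical class I genes had an end in an anchor. Loops passed over more H2 genes than they touched. A gene was counted as spanned when its whole length lay between the outer edges of a loop, which held for 14 of 35 H2 genes (40%), against 35% of all protein-coding genes. A short gene meets this rule more easily, and the median gene length was 4.47 kb for H2 genes against 17.4 kb for all. The part of gene length in these shares was not tested. Under the high setting the count was the same, 14 of 35, while the share of all genes was 17%. All 12 replicate 2 loops of the interval were on anchors under 25 kb and also in the high list, so this count could not fall. Over all chromosomes, 41.5% of replicate 2 loops were on 25 kb anchors. Counting any overlap with a loop instead gave 15 of 35 H2 genes, against 48.7% of all genes. The 14 genes spanned whole were 8 of 9 class II genes, 0 of 2 classical class I genes and 6 of 23 non-classical class I genes (26.1%). By replicate, 5 H2 genes were spanned in replicate 1 and 14 in replicate 2, against 9.28 and 34% of all genes. The 8 class II genes were all but H2-Ob, which lay across the edges of 2 loops. The 6 non-classical genes were all of the H2-M group, and no H2-Q or H2-T gene was inside a loop.

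**Figure D1:**
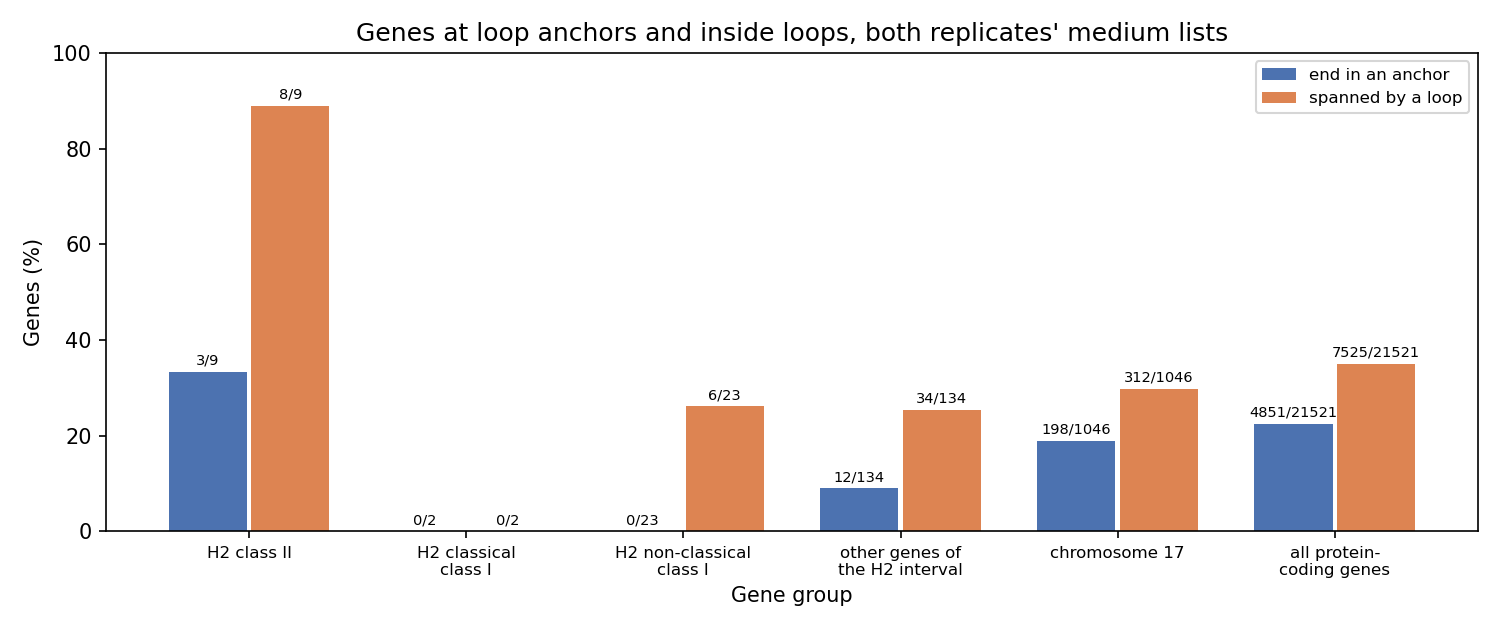
Share of genes (%) with an end in a loop anchor and share spanned by a loop, for H2 class II, classical and non-classical class I genes, the other genes of the H2 interval, chromosome 17 and all protein-coding genes. Bars start at 0 and carry the counts. Class II genes have 3/9 and 8/9, and both class I groups have 0 at an anchor.

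The class II genes lay under a run of 3 loops placed end to end in replicate 2. The run reached from 34070001 to 34354999, a length of 285 kb, with adjoining bins between the left and middle loops and 5 kb between the middle and right ones. Each loop held a separate block of antigen presentation genes. Of such runs, with at most 10 kb between neighbouring loops, the replicate 2 list held 72 on all chromosomes, 4 of them on chromosome 17.

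The left loop of the run held genes of peptide loading. It joined 34070001 to 34079999 and 34160001 to 34169999 over 90 kb (10 kb anchors, n = 29, the median of loops of that width). It spanned H2-Oa, H2-DMa, H2-DMb2 and H2-DMb1 and the non-H2 gene Brd2, a chromatin reader gene. H2-DMa and the 2 H2-DMb genes encode chains of DM, which exchanges peptides on class II proteins, and H2-Oa encodes a chain of DO, which restrains DM. The right end of H2-DMb1, at 34160229, lay just inside the right anchor. The left anchor held no end of a protein-coding gene. Replicate 1 had no matching loop.

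The middle loop ended at the start of H2-Ob, which encodes the other chain of DO. It joined 34170001 to 34179999 and 34230001 to 34239999 over 60 kb in replicate 2 (n = 35, above that of 68.2% of loops on 10 kb anchors). The start of H2-Ob, at 34238905, lay in its right anchor. The 4 genes inside were Psmb9, Tap1, Psmb8 and Tap2, none of them an H2 gene by symbol. Psmb8 and Psmb9 encode immunoproteasome subunits, which cut proteins into peptides for class I, and Tap1 and Tap2 encode the peptide transporter that brings them to class I proteins. Thus a class II gene lay at the edge of a loop that held class I supply genes. Replicate 1 had no matching loop.

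The right loop held all 4 genes of the classical class II chains and was found in both replicates. In replicate 1 it joined 34250001 to 34274999 and 34350001 to 34374999 over 100 kb (25 kb anchors, n = 31, the median for that width), under the medium setting alone. In replicate 2 it joined 34245001 to 34249999 and 34350001 to 34354999 over 105 kb (5 kb anchors, n = 22, above that of 70.3% of loops on 5 kb anchors), also under the high setting. A loop counted as found in both replicates when each anchor midpoint was at most 20 kb from its counterpart. In each replicate the loop spanned H2-Ab1 and H2-Aa, the beta and alpha chain genes of the I-A protein, and H2-Eb1 and H2-Eb2, beta chain genes of the I-E type, while H2-Ea, the I-E alpha chain gene, is a pseudogene in this annotation. The right anchor held an end of Btnl2, a butyrophilin-like gene of the same region, in both replicates. The left anchor differed in its genes. It held both ends of H2-Ab1 in replicate 1, at 34263227 and 34269418. In replicate 2 it held the right end of H2-Ob, at 34245908, and H2-Ab1 began 13.2 kb beyond it. Only the replicate 1 bin reached H2-Ab1. The 2 left anchors adjoined but shared no base, so they differed in called position as well as in bin width. Which of these differences placed H2-Ab1 at an anchor in replicate 1 alone was not tested.

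**Figure D2:**
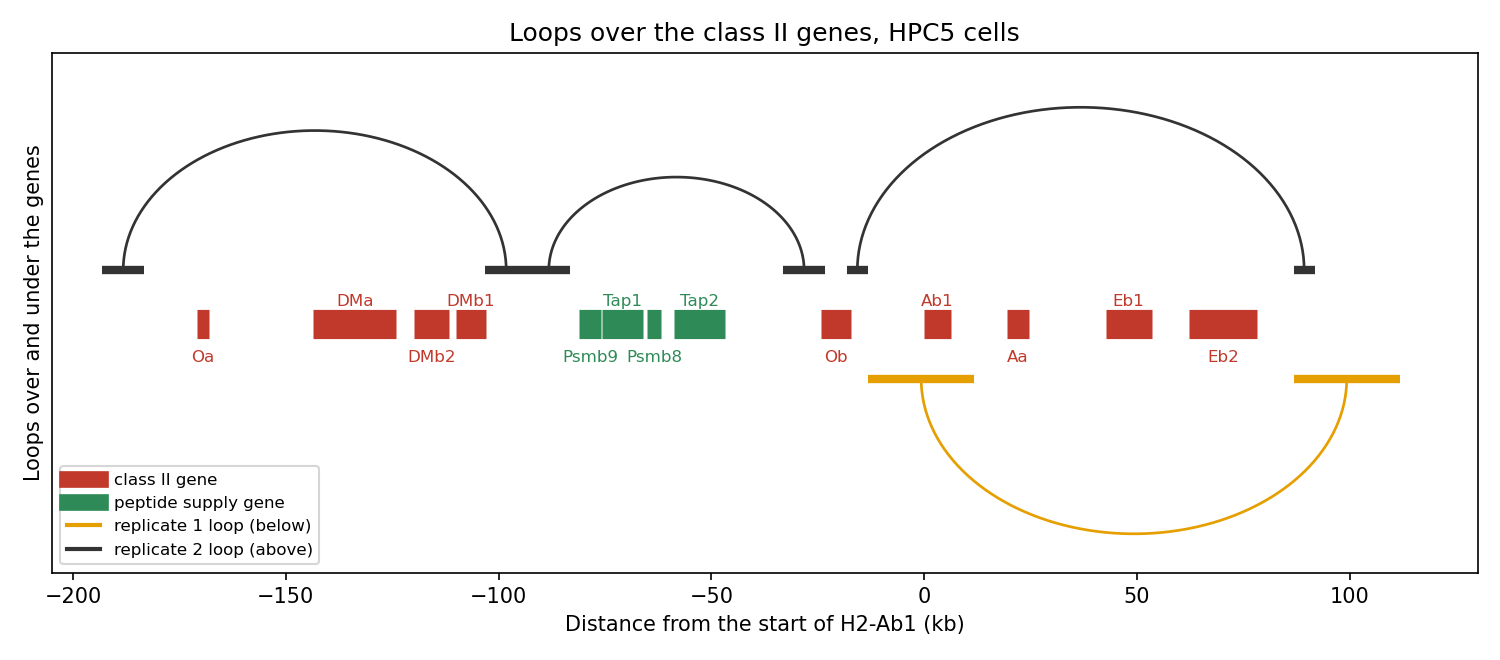
Loops over the class II genes by distance from the start of H2-Ab1 (kb), with replicate 2 loops above and replicate 1 loops below. Thick bars at the ends of each arc are anchors drawn to scale, red boxes are class II genes and green boxes Psmb9, Tap1, Psmb8 and Tap2. Other genes are not drawn, and the arc height has no scale. The 3 replicate 2 loops lie end to end, and the replicate 1 loop lies under the rightmost of them.

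The promoters of H2 genes with ends in anchors of this run, or inside its right loop, are shown. The X and Y boxes can so be read beside the loop positions. Sequences are from RefSeq (GRCm38.p6), cover 250 bases before to 50 bases after the transcription start, and are written 5′ to 3′ along the gene. Windows were listed for 32 of the 35 members. There was none for H2-Ab1, H2-Q1 and H2-T24. Capitals mark the Y box core CTGATTGG or its reverse complement CCAATCAG, and the first 9 letters of the X1 box, CCNAGNNAC, on either strand. The H2-Ob window lay inside the anchor that ended the middle loop, and the others lay in no anchor.
H2-Ob, chr17:34238655-34238954, plus strand: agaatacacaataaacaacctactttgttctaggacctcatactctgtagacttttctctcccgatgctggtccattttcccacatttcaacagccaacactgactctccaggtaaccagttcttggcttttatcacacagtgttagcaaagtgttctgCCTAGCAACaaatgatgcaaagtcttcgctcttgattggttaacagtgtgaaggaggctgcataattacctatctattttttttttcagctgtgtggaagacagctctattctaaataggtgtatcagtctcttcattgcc
H2-DMb1, chr17:34152941-34153240, plus strand: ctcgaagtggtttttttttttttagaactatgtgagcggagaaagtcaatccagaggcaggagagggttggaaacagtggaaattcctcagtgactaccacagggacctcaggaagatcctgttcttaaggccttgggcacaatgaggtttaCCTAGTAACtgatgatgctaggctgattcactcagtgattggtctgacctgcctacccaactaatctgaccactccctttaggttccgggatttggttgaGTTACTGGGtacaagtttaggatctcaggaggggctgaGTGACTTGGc
H2-Aa, chr17:34287774-34288073, minus strand: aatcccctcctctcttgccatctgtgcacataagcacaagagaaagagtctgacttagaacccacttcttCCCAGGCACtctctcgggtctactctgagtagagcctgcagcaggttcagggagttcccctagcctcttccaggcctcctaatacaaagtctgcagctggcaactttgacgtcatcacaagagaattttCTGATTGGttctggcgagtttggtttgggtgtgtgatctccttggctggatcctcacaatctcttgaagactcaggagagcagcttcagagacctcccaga
H2-Eb1, chr17:34305617-34305916, plus strand: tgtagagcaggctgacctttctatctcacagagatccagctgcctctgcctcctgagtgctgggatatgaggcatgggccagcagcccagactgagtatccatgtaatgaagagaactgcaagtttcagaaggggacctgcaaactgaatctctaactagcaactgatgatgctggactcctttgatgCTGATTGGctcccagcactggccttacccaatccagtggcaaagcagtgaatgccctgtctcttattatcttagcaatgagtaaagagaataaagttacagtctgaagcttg
H2-Eb2, chr17:34325425-34325724, plus strand: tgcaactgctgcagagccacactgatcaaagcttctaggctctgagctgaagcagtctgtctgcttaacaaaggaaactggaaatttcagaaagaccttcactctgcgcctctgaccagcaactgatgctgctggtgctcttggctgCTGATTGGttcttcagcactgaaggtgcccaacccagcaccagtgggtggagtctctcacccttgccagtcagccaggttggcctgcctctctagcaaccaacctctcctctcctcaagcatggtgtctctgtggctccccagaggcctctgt

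The X1 letters began 91 bases before the start of H2-Ob, 98 bases before that of H2-DMb1 and 180 bases before that of H2-Aa. H2-DMb1 also held them as their reverse complement, starting 2 and 40 bases after its start. The Y box core began 51 bases before the start of H2-Aa, 62 before H2-Eb1 and 103 before H2-Eb2. It was found in 4 of the 8 class II genes with a window, the fourth being H2-Oa. These counts are of exact letters and miss near forms. The H2-Ob and H2-DMb1 windows hold GATTGG after the X1 letters. The H2-Eb1 and H2-Eb2 windows hold ACTAGCAAC and ACCAGCAAC, in that order, before the Y box core. Between its X1 letters and its Y box core the H2-Aa window holds GCTGGCAAC, and which of its stretches is an X box was not tested. A gene without a match may thus still hold a box. The X1 letters were in 5 of 8 class II genes, 0 of 2 classical and 6 of 21 non-classical class I genes, and in H2-Ke6. Of the 32851 promoter windows in the table, 4.1% held the Y box core and 17.3% the X1 letters on either strand, and a match is a description of letters, not of binding. The X1 and Y box letters did not overlap in the windows printed. The ETS consensus CCGGAAGT, of the family to which ETV6 belongs, was in 1 of 35 H2 windows, that of H2-T3, against 3.89% of all windows. The interferon response core GAAANNGAA was in 2 H2 windows, those of H2-T23 and H2-T22, against 8.56% of all. The cyclic AMP element core TGACG, part of the X2 box, was in both classical class I genes, 9 of 21 non-classical genes and 1 of 8 class II genes (H2-Aa, on both strands with overlapping letters), against 20.8% of all windows. All were searched on either strand.

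The 2 classical class I genes lay outside every loop. H2-K1, at 33996012 to 34000619 at the left edge of the interval, was 69.4 kb from the nearest anchor. H2-D1, at 35263094 to 35267497, was 28.1 kb from one. Their promoters are printed for comparison with the class II genes above, with the same capitals.
H2-K1, chr17:34000284-34000583, minus strand: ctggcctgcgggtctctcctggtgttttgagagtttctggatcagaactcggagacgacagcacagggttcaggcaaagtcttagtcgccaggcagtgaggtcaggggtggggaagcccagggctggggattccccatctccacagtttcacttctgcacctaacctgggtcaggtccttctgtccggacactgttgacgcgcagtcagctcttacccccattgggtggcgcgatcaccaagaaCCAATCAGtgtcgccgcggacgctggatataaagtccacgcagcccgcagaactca
H2-D1, chr17:35262844-35263143, plus strand: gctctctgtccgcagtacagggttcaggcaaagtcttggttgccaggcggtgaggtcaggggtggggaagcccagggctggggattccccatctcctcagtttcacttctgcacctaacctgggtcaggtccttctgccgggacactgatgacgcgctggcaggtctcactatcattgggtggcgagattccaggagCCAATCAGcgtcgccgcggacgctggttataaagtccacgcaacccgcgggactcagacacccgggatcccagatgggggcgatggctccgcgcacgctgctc
Here the letters of the Y box core read as their reverse complement, CCAATCAG, starting 6 bases before the listed start of H2-K1 and 53 before that of H2-D1. From the other listed start of H2-K1 the same core began 8 bases after the start. All 14 class I genes with the core, of 23 with a window, carried it in this orientation, and all 4 class II genes with it carried it in the other. The 2 orientations thus split by class among H2 genes with an exact match. Whether the class I matches are Y boxes of an X and Y module was not tested. Both printed class I windows also hold ATTGG, the letters that end the core, between TGACG and CCAATCAG. That ATTGG has the orientation of the class II matches, and the exact search did not count it.

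The nearest loop to H2-D1 belonged to the class III stretch, the part of the MHC that holds complement and cytokine genes. It joined 35175001 to 35179999, with an end of Aif1, a macrophage calcium-binding protein gene, and 35230001 to 35234999, with an end of Atp6v1g2, a proton pump subunit gene. It spanned 55 kb in replicate 2 (n = 33, above that of 96.9% of loops on 5 kb anchors), and held Lst1, Ltb, Tnf and Lta, of which the last 3 encode cytokines of the TNF family. H2-D1 lay beyond its right edge. Of the listed class III genes 20 matched a protein-coding gene. Of these, 1 had an end in an anchor (Aif1, 5%, against 22.5% of all genes) and 6 were spanned (Msh5, Clic1, Lst1, Ltb, Tnf and Lta, 30%, against 35%).

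The H2-Q and H2-T genes lay in long stretches without an anchor. From 35235000 to 35835000, a length of 600 kb, neither replicate had an anchor, and H2-D1 and all 6 H2-Q genes lay there in full. The next such stretch, of 475 kb from 35875000 to 36350000, held all 5 H2-T genes together with H2-M10.2 and H2-M10.1. On chromosome 17 the 323 anchor-free stretches had a median of 90 kb, and 92.3 and 90.4% of them were shorter than these 2. Each stretch counts once here whatever its length, and the longest was 5960 kb. The share of the chromosome in stretches this long was not computed. Between the 600 and 475 kb stretches stood 1 loop of 35 kb in replicate 2, with an end of the tubulin gene Tubb5 in its left anchor. H2-Q genes were 85.5 to 235 kb from the nearest anchor and H2-T genes 128 to 234 kb. Members there include H2-Q10, which encodes a secreted class I protein of liver, at 235 kb. H2-T23, whose product Qa-1 is a ligand of inhibitory receptors on natural killer cells, was at 155 kb, and H2-T22, whose product is recognised by some gamma delta T cells, at 162 kb. No H2-Q or H2-T gene was at an anchor or inside a loop in either replicate.

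The classes also differed in how far their genes lay from an anchor. The median distance from the nearer gene end was 60.2 kb for H2 genes, against 27.2 kb for all protein-coding genes and 33.1 kb for the other genes of the interval. It was 8.45 kb for class II genes (0 to 30.9 kb) and 107 kb for non-classical class I genes (5 to 271 kb). After the 3 genes at anchors, the 5 nearest were H2-M10.3 at 5 kb, H2-Aa at 7.75 kb, H2-DMb2 at 8.45 kb, H2-Eb2 at 8.59 kb and H2-Oa at 12.4 kb, and 4 of these 5 are class II genes. The 5 farthest were H2-M2 at 271 kb, H2-Q10 at 235 kb, H2-T-ps at 234 kb, H2-Q7 at 204 kb and H2-Q6 at 190 kb, all non-classical class I genes. With both replicates together, all class II genes but H2-Eb1, at 30.9 kb, were nearer to an anchor than the 27.2 kb median of all genes. In replicate 2 alone H2-Aa was at 32.7 kb and H2-Eb1 at 33.3 kb, and the other class II genes were at 20.9 kb or less. In replicate 1 alone H2-Oa, H2-DMa, H2-DMb2 and H2-DMb1 were at 155, 111, 98.4 and 89.8 kb. H2-Eb1 was at 30.9 kb there and the other class II genes at 8.59 kb or less. The distances of neighbouring genes are tied, so the order describes positions in 1 region.

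**Figure D3:**
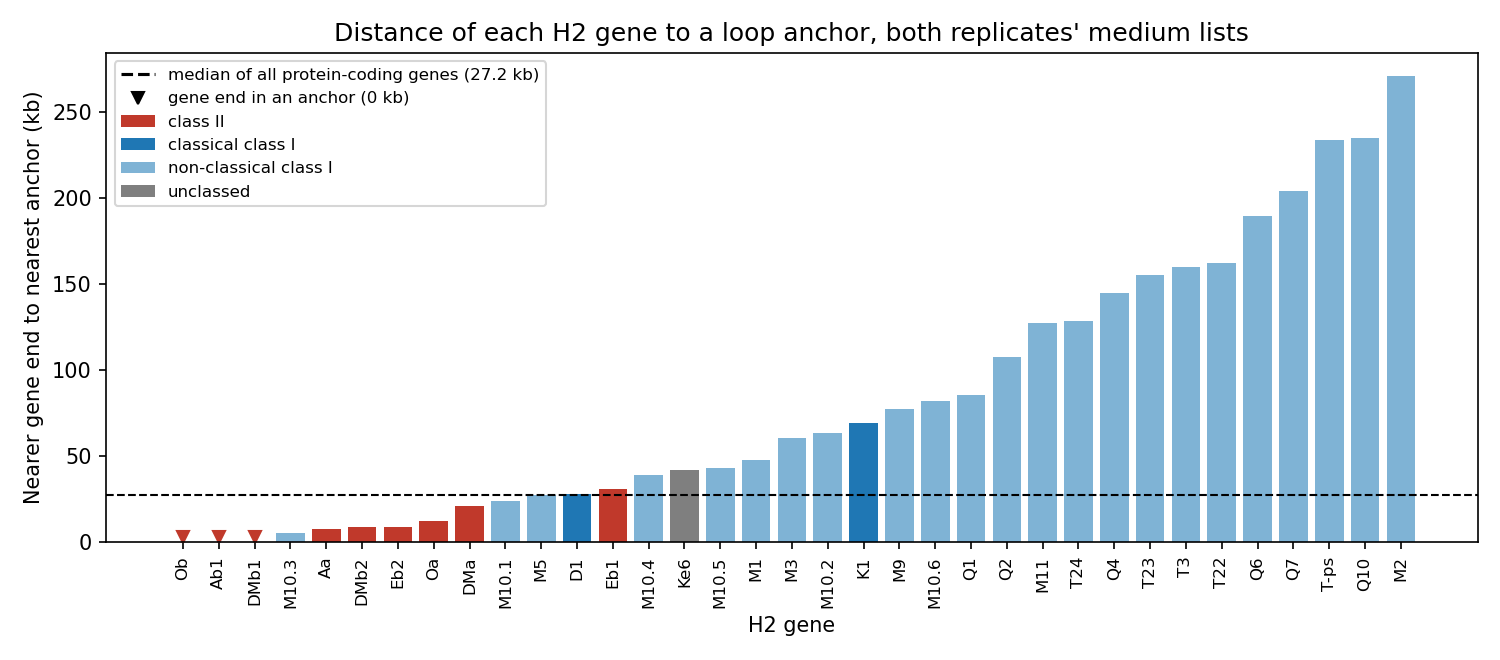
Distance (kb) from the nearer end of each of the 35 H2 genes to the nearest anchor of either replicate's medium list, in rising order and coloured by class. Triangles mark the 3 genes with an end in an anchor, and the dashed line is the median of all protein-coding genes, 27.2 kb. The left end holds 8 of the 9 class II genes together with H2-M10.3, and H2-Q and H2-T genes lie to the right at 85.5 kb or more.

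The H2-M genes, at the right end of the interval, were spanned in 6 of 12 cases and had no end in an anchor. H2-M10 genes are known for expression in sensory neurons of the vomeronasal organ. A 370 kb loop of replicate 2 had n = 28, above that of 40.8% of loops on 10 kb anchors. Its anchors were at 36350001 to 36359999 and 36720001 to 36729999. It held 5 genes, all of them H2 genes, namely H2-M10.3, H2-M10.4, H2-M11, H2-M9 and H2-M1, and no protein-coding gene ended in its anchors. A shorter loop of 60 kb (n = 19) started within the same left anchor and held H2-M10.3 alone. Replicate 1 had no loop there, and H2-M10.2, H2-M10.1, H2-M10.5 and H2-M10.6 lay outside both loops.

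H2-M5 was the other member inside a loop found in both replicates. In replicate 1 this loop joined 36900001 to 36924999 and 37025001 to 37049999 over 125 kb (n = 30). In replicate 2 it joined 36910001 to 36919999 and 37040001 to 37049999 over 130 kb (n = 27). These n were above those of 43% of replicate 1 loops on 25 kb anchors and 37.3% of replicate 2 loops on 10 kb anchors. The left anchor held an end of Trim31, a ubiquitin ligase gene, and the right anchor an end of Gabbr1, a GABA receptor gene, in both replicates. The loop spanned the same 8 genes in each, H2-M5 among them. The others included Mog, a myelin protein gene, and Zfp57, a zinc finger gene of imprinting control. A longer replicate 2 loop of 290 kb had n = 17, above that of 3.25% of loops on 10 kb anchors. It started at the same left anchor and ended at 37200001 to 37209999. H2-M3, whose product presents N-formylated bacterial peptides, lay 60.2 kb beyond that anchor and H2-M2 271 kb beyond it. Both fell in a stretch of 3625 kb without an anchor that ran on past the interval.

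**Figure D4:**
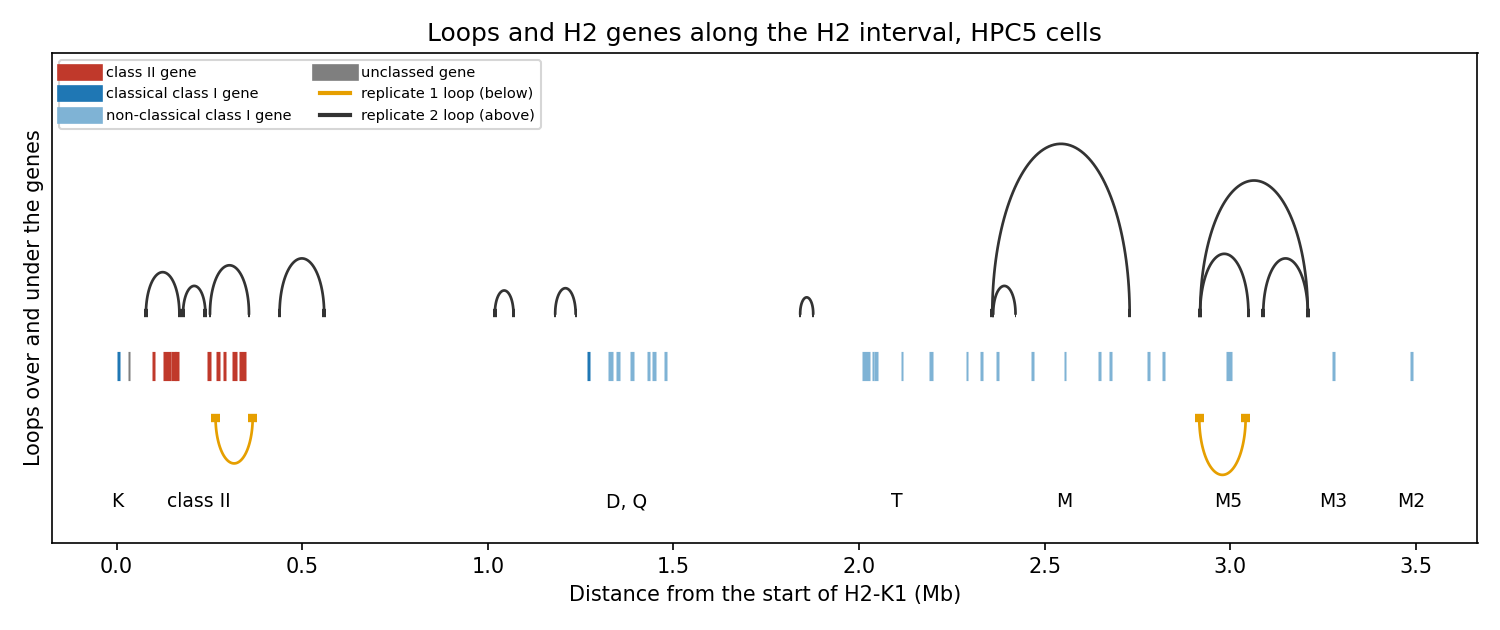
H2 genes, coloured by class, and all 14 loops of the H2 interval by distance from the start of H2-K1 (Mb). Replicate 2 loops are arcs above the genes and replicate 1 loops arcs below, with anchors as bars at their feet, and the arc height has no scale. Loops stand over 8 of 9 class II and 6 of 12 M genes, and the D, Q and T genes lie between loops.

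The interval as a whole was not short of loops. It held 2 loops in replicate 1 and 12 in replicate 2, or 0.573 and 3.44 per Mb, against 0.497 and 2.23 per Mb over all chromosomes. Anchors covered 7.17% of its bases, against 6.93% of all. Its genes were denser, at 48.5 protein-coding genes per Mb against 8.38. Its replicate 2 loops were on narrow anchors, with 0 of 12 on 25 kb anchors against 41.5% of all replicate 2 loops. Both replicate 1 loops had a partner in replicate 2, and 4 of the 14 loops had an H2 gene end in an anchor. The part of gene density and anchor width in the share of H2 genes at anchors was not tested.

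Many class I genes are similar copies of each other, and reads from identical stretches are hard to place. The longest run of identical letters that each H2 promoter window shared with that of another H2 gene was therefore computed along the direction of transcription. It was 11 to 23 bases for the 8 class II genes with a window (median 12), 47 bases for H2-K1 and H2-D1, which shared it with each other, and 11 to 86 bases for 21 non-classical genes (median 39). The longest, of 86 bases, was between H2-T23 and H2-T-ps. Outside every loop were H2-T23 and H2-T-ps, H2-Q6 and H2-Q7 (67 bases), H2-K1 and H2-D1, and also H2-T22 and H2-T3 (12 bases each). Inside one were 7 of the 8 class II genes with a window, and also H2-M10.3 (65 bases), H2-M9 and H2-M1 (60 bases each). The part of read placement in these results was not tested.

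No H2 gene lay in a called domain. The share of all protein-coding genes wholly inside a domain was 3.98%. The lists held 13 domains on chromosome 17, and the nearest lay 1966 kb from H2-K1.

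Other antigen presentation genes, spread over several chromosomes, were at anchors in 4 of 30 cases (13.3%, against 22.5% of all genes), all 4 in replicate 2 alone. Tapbpl, which encodes a peptide editor of class I, had a 50 kb loop on chromosome 6 to an anchor with an end of Tuba3a. Erap1, whose product trims peptides for class I, had a 220 kb loop on chromosome 13. Ctsl and Lgmn, genes of lysosomal proteases that act in the class II pathway, had loops of 50 kb on chromosome 13, and of 70 and 400 kb on chromosome 12. B2m, the light chain gene of class I, and Ciita, the class II coactivator gene, were at no anchor, at 36.9 and 6.07 kb. In all 13 of the 30 were spanned by a loop (43.3%, against 35%), 4 of them the Psmb and Tap genes described above.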

How the data were processed

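Hi-C was run on 2 libraries of 1 group. Per the submitters' processing notes, reads were processed with HiC-Pro 2.11.1 on mm10. Which programs and thresholds made the loop and domain lists is not given in these sources. The deposited values are positions, an undefined number n and an undefined value qBL, which was not used. Loop positions are printed as the authors deposited them, and domain starts, deposited as counted from 0, are given counted from 1. Gene positions are those of RefSeq on GRCm38.p6, which mm10 names, and promoter windows are of the same build. Chromosome sequence was not used here, so anchors were not searched for CTCF motifs.

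A gene was at an anchor when either annotated end lay in it. Members and lists were chosen with earlier results of these data known. Shares are descriptions without tests: there is 1 group, and neighbouring genes share loops. Every member is accounted for, genes at anchors are given with all their loops and partner genes, and for the rest the 5 nearest and 5 farthest are named. Other interval genes were named because they share a loop with a member, are listed class III genes, or lie at or inside another loop of the interval. Of the 22 class III symbols, C4a and Ncr3 matched no protein-coding gene. Python 3.11.15, numpy 2.4.6 and pandas 2.3.3 were used, and the counting was tested on simulated data. Alternatives were other end distances, gene bodies, transcription starts (added after seeing the data), the high setting, each replicate alone, shared loops, span edges and pseudogenes.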

Additional observations from a re-analysis of the deposited data

How the results depend on the processing

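H2 genes at anchors numbered 3 of 35, against 22.5% of all genes. Allowing 10 kb from an anchor gave 7 of 35 genes (36.5% of all genes), the additions being H2-DMb2, H2-Aa, H2-Eb2 and H2-M10.3. Asking for the transcription start in an anchor, chosen after seeing the data, gave 1 of 32 genes (H2-Ob; 14.9% of all). Leaving out either replicate gave 1 to 2 genes. The count was 3 with gene bodies (30% of all genes) and with ends within 5 kb (30.6%), and 2 with the high setting (9.53%) and with shared loops at 20 or 50 kb (5.83 and 7.3%). With pseudogenes it was 4 of 46 (16.7%). The H2 share was thus close to that of all genes on shared loops and below it in the other alternatives, and no class I gene was at an anchor in any of these but H2-M10.3 within 10 kb. Loops found in both replicates left H2-Ob and H2-Ab1, which lay in the left anchors of the same matched pair of loops, each in a different replicate. Genes spanned numbered 14 of 35, and 5 to 14 without either replicate: without replicate 2 those left were H2-Ab1, H2-Aa, H2-Eb1, H2-Eb2 and H2-M5. The count was 14 of 35 under the high setting (17% of all genes), 13 with the inner edges of the anchors (27%), 15 with any overlap (48.7%) and 20 of 46 with pseudogenes (38.4%), so the H2 share lay below that of all genes with any overlap and above it in the other alternatives. The spanned count under the high setting could not fall, because all 12 replicate 2 loops of the interval are also in the high list. The count in domains was 0 under all 4 alternatives. The cause of the gap between replicates was not tested, and the depth is unknown. No paired analysis was possible because both libraries belong to 1 group and no groups were compared.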

Other observations

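Beside the loops over H2 genes, the interval held loops over other genes in replicate 2 alone. A loop of 120 kb joined 34430001 to 34439999 and 34550001 to 34559999 (n = 33) and held Btnl4 and Btnl6, butyrophilin-like genes next to the class II block, with no gene end in its anchors. A loop of 50 kb (n = 27) joined an anchor with ends of Vars, a tRNA synthetase gene, and Vwa7 to one with ends of Ddah2, Mpig6b and Ly6g6c, and it spanned Msh5 and Clic1. A loop of 120 kb (n = 22) ran from an anchor with an end of Olfr90 over a block of olfactory receptor genes and Ubd, a ubiquitin-like modifier gene, to 37200001 to 37209999. That last anchor also ended the 290 kb loop over H2-M5. In the order given here, the n of the loops over other genes was above that of 60.8, 37.3 and 17.8% of replicate 2 loops on 10 kb anchors. The genes of these loops were named after their values were seen.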
